A study of Mus musculus with 16 samples.

Results

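The 9 genes described here, Spi1, Cebpa, Cebpb, Cebpd, Maf, Bhlhe40, Bhlhe41, Tfec and Mitf, encode transcription factors of the macrophage lineage, and were taken from the 22287 genes of the count table by an exact match of the gene symbol. They were measured by RNA-seq in bone marrow derived macrophages (BMDMs) of C57BL/6J mice aged 8 weeks, for which no engineered allele is named. For 7 days the marrow cells were kept in either GM-CSF at 20 ng/ml (GM) or M-CSF at 50 ng/ml (M), on dishes with (TC) or without (noTC) tissue culture treatment, and they then received vehicle (steady state) or 100 ng/ml LPS, a bacterial cell wall component sensed by TLR4, for 3 h. Groups are named by growth factor and dish, as in GM-TC or M-noTC, with -LPS added after the challenge, which gave 8 groups of 2 libraries each. The study asked whether the dish surface changes these macrophages. Cells were seeded more densely with GM-CSF than with M-CSF, so growth factor and seeding density cannot be told apart. The study calls the libraries of a group biological replicates but does not say whether they came from separate mice or separate cultures, and p-values measure only the spread between these libraries.

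Spi1 encodes PU.1, the ETS family factor that opens myeloid enhancers, and the C/EBP factors, which are basic leucine zipper proteins, bind beside it. C/EBPα is known for granulocyte and monocyte commitment, whereas C/EBPβ and C/EBPδ are known for the inflammatory response. MAF, another basic leucine zipper protein, is known for the mature, non-dividing macrophage and for genes such as the C1q subunits and Il10. BHLHE40 and BHLHE41 are basic helix-loop-helix repressors that bind E-boxes, and MITF and TFEC belong to the MiT family, whose members pair with each other and are known for lysosomal and osteoclast genes. M-CSF signals through CSF1R and GM-CSF through CSF2RA with its common beta chain, and GM-CSF cultures of bone marrow are known to hold dendritic-like cells beside macrophages.

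Library totals lay between 17527802 and 31458363 counts, at which 3 counts correspond to 0.0954 to 0.171 CPM, the count scaled to a common library size. All 9 genes passed the filter on low counts, as did 12514 genes in all. Levels are CPM scaled with TMM factors, which correct for composition, and a gene was called when the Benjamini-Hochberg (BH) adjusted p of edgeR's quasi-likelihood test over all 16 libraries was under 0.05. When counts were scaled by library size only, the median log2 fold change of all genes upon LPS challenge moved to between -0.83 and -0.53, and the median difference between GM and M cells at steady state moved to -0.29. Macrophage markers were abundant in every library, with a summed level of 19867 to 46484 CPM. The dendritic cell markers summed to 904 to 1084 CPM in the GM libraries and to 15.2 to 59.7 CPM in the M libraries. Most of it was Itgax, whereas Flt3 had a mean of at most 0.41 CPM in any group. Ccr7 had a mean of 9.41 CPM in GM-TC, 56.0 CPM in GM-TC-LPS and 61.5 CPM in GM-noTC-LPS. Its highest mean in an M group was 0.58 CPM, in M-noTC-LPS. Zbtb46 had means from 1.75 CPM (GM-TC) to 7.75 CPM (GM-noTC-LPS) in the GM groups. Its highest mean in an M group was 0.37 CPM, in M-TC. Markers of T and B cells, neutrophils, mast cells and stroma summed to at most 32.8 CPM, and Cd3e was at 0 in all 16 libraries. Heart muscle markers reached 13.5 to 44.3 CPM in GM-TC and M-TC and at most 0.232 CPM in every other group. Some genes were nearly absent from TC but abundant elsewhere. In steady state noTC, their median rise over TC was 0.675% (GM) and 0.600% (M) of their mean in the other libraries. Such a share would make up at most 5.73% of the level of any of the 9 genes, that of Cebpd in GM-noTC. Since these were bulk libraries, fewer cells of a type and less RNA per cell cannot be told apart.

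The level of Spi1 (ENSMUSG00000002111, chr2:91082390-91115756, plus strand, GRCm38) varied the least of the 9 genes, by 2.74-fold between the lowest and the highest group. At steady state it was measured at 165 and 186 CPM in the GM-TC libraries, at 181 and 182 in those of GM-noTC, at 166 and 164 in those of M-TC, and at 167 and 178 in those of M-noTC. Upon LPS challenge it was measured at 209 and 213 CPM in the GM-TC-LPS libraries, at 214 and 211 in those of GM-noTC-LPS, at 468 and 438 in those of M-TC-LPS, and at 364 and 354 in those of M-noTC-LPS. Both LPS treated M groups stood above every other library. From high to low, the groups GM-noTC-LPS and GM-TC-LPS overlapped, as did GM-noTC, GM-TC and M-noTC in turn.

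**Figure D1:**
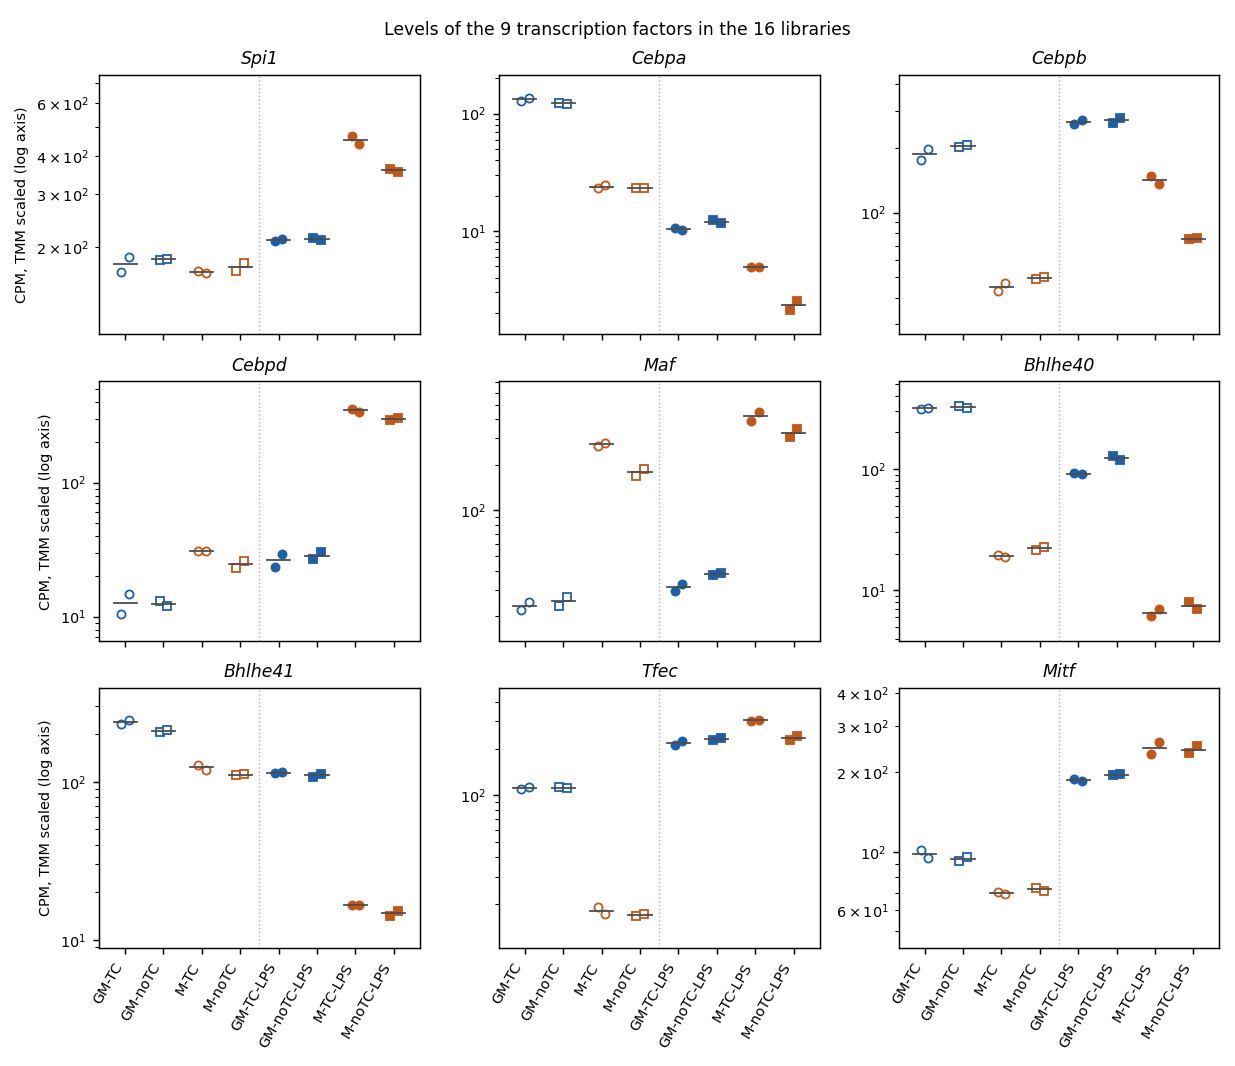
Level of each gene in the 16 libraries, as CPM with TMM scaling on a log axis that differs between panels, with 1 point per library and a line at the mean of 2 libraries. Blue stands for GM and orange for M, circles for TC and squares for noTC, and open points for steady state and filled points for LPS. Cebpa, Bhlhe40 and Bhlhe41 lie lower upon LPS challenge in every culture. Spi1, Cebpd, Maf and Mitf lie at their highest in the LPS treated M cells, and Tfec in M-TC-LPS.

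The 3 C/EBP genes were each highest in a different condition. Cebpa (ENSMUSG00000034957, chr7:35119293-35121928, plus strand) was measured at 129 and 134 CPM in the GM-TC libraries, at 122 and 122 in those of GM-noTC, at 23.3 and 24.4 in those of M-TC, and at 23.0 and 23.4 in those of M-noTC. With LPS it was measured at 10.5 and 10.1 CPM in the GM-TC-LPS libraries, at 12.4 and 11.7 in those of GM-noTC-LPS, at 4.92 and 4.88 in those of M-TC-LPS, and at 2.10 and 2.54 in those of M-noTC-LPS. Its 56.7-fold range between groups was the widest of the 9 genes, and only M-TC and M-noTC overlapped. Cebpb (ENSMUSG00000056501, chr2:167688915-167690418, plus strand) was measured at 176 and 199 CPM in the GM-TC libraries, at 203 and 208 in those of GM-noTC, at 43.0 and 47.0 in those of M-TC, and at 49.0 and 50.1 in those of M-noTC. With LPS it was measured at 262 and 271 CPM in the GM-TC-LPS libraries, at 263 and 277 in those of GM-noTC-LPS, at 149 and 135 in those of M-TC-LPS, and at 75.1 and 75.7 in those of M-noTC-LPS. Every GM library thus stood above every M library for Cebpb, and the dishes separated in the LPS treated M cells.

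Cebpd (ENSMUSG00000071637, chr16:15887286-15891031, plus strand) was low in GM cells, where the GM-TC libraries read 10.5 and 14.8 CPM, those of GM-noTC 13.0 and 12.0, those of GM-TC-LPS 23.4 and 29.3, and those of GM-noTC-LPS 26.8 and 30.2. In M cells it was measured at 30.9 and 31.1 CPM in the M-TC libraries, at 23.1 and 26.1 in those of M-noTC, at 357 and 337 in those of M-TC-LPS, and at 294 and 304 in those of M-noTC-LPS. The 4 LPS treated M libraries were far above the other 12, whose groups partly overlapped. In the GENCODE annotation Cebpd shares 562 exon bases with Spidr on the opposite strand, and the library kit does not mark strand, so that reads of the shared stretch cannot be told apart. Spidr lay between 12.5 and 33.3 CPM and was higher in the M libraries than in the GM libraries, and its part in the low Cebpd values was not tested. Bhlhe41 (855), Maf (440), Bhlhe40 (118) and Cebpa (51) also share exon bases with genes on the opposite strand. Those genes are not in the count table, and their part was not tested.

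Maf (ENSMUSG00000055435, chr8:115682942-115707794, minus strand) was measured at 22.0 and 24.7 CPM in the GM-TC libraries, at 23.5 and 26.9 in those of GM-noTC, at 29.4 and 32.6 in those of GM-TC-LPS, and at 37.3 and 38.4 in those of GM-noTC-LPS. In M cells it was measured at 267 and 281 CPM in the M-TC libraries, at 170 and 187 in those of M-noTC, at 391 and 445 in those of M-TC-LPS, and at 304 and 343 in those of M-noTC-LPS. The lowest M library was above every GM library, and at either state the M-TC libraries were above the M-noTC libraries.

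The paired repressors differed in their range. Bhlhe40 (ENSMUSG00000030103, chr6:108660629-108666925, plus strand) was measured at 312 and 319 CPM in the GM-TC libraries, at 330 and 320 in those of GM-noTC, at 92.0 and 90.6 in those of GM-TC-LPS, and at 128 and 118 in those of GM-noTC-LPS. In M cells it was measured at 19.6 and 18.7 CPM in the M-TC libraries, at 21.5 and 22.7 in those of M-noTC, at 6.10 and 6.97 in those of M-TC-LPS, and at 7.96 and 7.04 in those of M-noTC-LPS. No neighbouring groups of Bhlhe40 overlapped, and all GM libraries were above all M libraries. Bhlhe41 (ENSMUSG00000030256, chr6:145858243-145865558, minus strand) was measured at 232 and 245 CPM in the GM-TC libraries, at 206 and 213 in those of GM-noTC, at 113 and 115 in those of GM-TC-LPS, and at 108 and 112 in those of GM-noTC-LPS. In M cells it was measured at 128 and 119 CPM in the M-TC libraries, at 110 and 112 in those of M-noTC, at 16.6 and 16.5 in those of M-TC-LPS, and at 14.2 and 15.3 in those of M-noTC-LPS. The LPS treated GM cells thus lay near the untreated M cells, with GM-TC-LPS between M-TC and M-noTC and GM-noTC-LPS overlapping M-noTC, and the LPS treated M cells lay far lower.

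Tfec and Mitf were higher with LPS in both cell types. Tfec (ENSMUSG00000029553, chr6:16833373-16898441, minus strand) was measured at 110 and 113 CPM in the GM-TC libraries, at 112 and 112 in those of GM-noTC, at 211 and 223 in those of GM-TC-LPS, and at 227 and 233 in those of GM-noTC-LPS. In M cells it was measured at 19.1 and 17.2 CPM in the M-TC libraries, at 16.7 and 17.1 in those of M-noTC, at 300 and 306 in those of M-TC-LPS, and at 227 and 239 in those of M-noTC-LPS. The M cells thus had the lowest level of Tfec at steady state, and after LPS M-TC-LPS had the highest while M-noTC-LPS overlapped GM-noTC-LPS. Mitf (ENSMUSG00000035158, chr6:97807052-98021349, plus strand) was measured at 101 and 94.9 CPM in the GM-TC libraries, at 92.2 and 95.6 in those of GM-noTC, at 70.6 and 69.1 in those of M-TC, and at 73.2 and 71.0 in those of M-noTC. With LPS it was measured at 189 and 186 CPM in the GM-TC-LPS libraries, at 196 and 197 in those of GM-noTC-LPS, at 235 and 261 in those of M-TC-LPS, and at 237 and 251 in those of M-noTC-LPS. Its 3.55-fold range was the second narrowest after that of Spi1.

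Promoter sequence (RefSeq, GRCm38.p6, 250 bases before to 50 bases after a start) was matched for 5 of the 9 genes in 7 windows, 3 of them for Mitf, whose starts the gene counts pool. The 250 upstream bases are shown for Cebpa and Tfec, which had the widest fall and the widest rise with LPS, and for Bhlhe41, in whose window the E-box that both BHLHE factors are known to bind was found. Capitals mark that E-box, and the coordinates are chr7:35119043-35119292 (plus strand) for Cebpa, chr6:16898442-16898691 (minus strand) for Tfec and chr6:145865421-145865670 (minus strand) for Bhlhe41.
Cebpa: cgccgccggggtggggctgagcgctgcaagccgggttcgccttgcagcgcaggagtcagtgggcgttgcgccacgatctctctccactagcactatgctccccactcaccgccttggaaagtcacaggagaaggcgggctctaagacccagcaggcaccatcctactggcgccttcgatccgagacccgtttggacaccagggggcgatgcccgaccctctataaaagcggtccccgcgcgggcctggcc
Tfec: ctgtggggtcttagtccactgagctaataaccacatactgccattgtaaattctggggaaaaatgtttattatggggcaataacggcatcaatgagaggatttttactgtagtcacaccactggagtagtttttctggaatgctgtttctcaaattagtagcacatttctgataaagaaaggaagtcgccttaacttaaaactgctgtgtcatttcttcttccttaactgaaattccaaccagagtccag
Bhlhe41: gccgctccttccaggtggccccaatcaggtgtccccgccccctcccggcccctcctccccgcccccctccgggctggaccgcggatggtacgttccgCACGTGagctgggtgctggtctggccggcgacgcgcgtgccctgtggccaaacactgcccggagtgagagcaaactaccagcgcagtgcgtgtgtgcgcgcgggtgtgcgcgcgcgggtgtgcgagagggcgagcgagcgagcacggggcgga
Both strands were searched for 7 motifs. The E-box CACGTG, which reads the same on both strands, was in the Bhlhe41 window at positions -153 to -148 from the start and in 7.15% of all 32851 windows of this length. The C/EBP motif TTGCNNAA (10.8% of windows) was in the first Mitf window at -129 to -122 and in the second at 35 to 42, and the MAF core TGCTGAC (4.67%) began at -222 in the first and -236 in the second. The NF-kB core GGANNTTCC (4.26%) was in the second Mitf window at -51 to -43, and the cyclic AMP response element TGACGTCA (1.79%) in the last at -153 to -146. The M-box core TCATGTG (3.77%) and the PU.1 motif GAGGAAGT (3.2%) were in none of the 7 windows, and none of the 7 motifs was in the Cebpa, Cebpb or Tfec windows.

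Between GM and M cells at steady state, the lineage factors fell into 3 kinds. Bhlhe40, Tfec, Cebpa and Cebpb were higher in GM cells by 4.17-fold or more on TC, Maf and Cebpd were higher in M cells, and Spi1 was not called. On TC, Bhlhe40 differed by 4.04 on the log2 scale (SE 0.066, BH-adjusted p = 2.7e-22), Tfec by 2.62 (SE 0.064, adjusted p = 2.1e-19), Cebpa by 2.47 (SE 0.061, adjusted p = 2.8e-19) and Cebpb by 2.06 (SE 0.067, adjusted p = 3.5e-17). Bhlhe41 was 1.93-fold and Mitf 1.40-fold higher in GM cells. Maf was 11.7-fold lower in GM-TC than in M-TC (log2 -3.55, SE 0.089, adjusted p = 3.7e-19), and Cebpd was 2.42-fold lower (log2 -1.28, SE 0.12, adjusted p = 3.2e-09). For Spi1 the difference was 0.09 with a 95% interval of -0.03 to 0.21 (adjusted p = 0.18), and without GM-TC replicate 1 it was 0.15 and called. In all, 6 of the 9 genes were higher and 2 lower in GM-TC, where 61.5% of the genes tested were called, and 6 passed with a fold above 2, as did 21.8% of the genes tested.

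**Figure D2:**
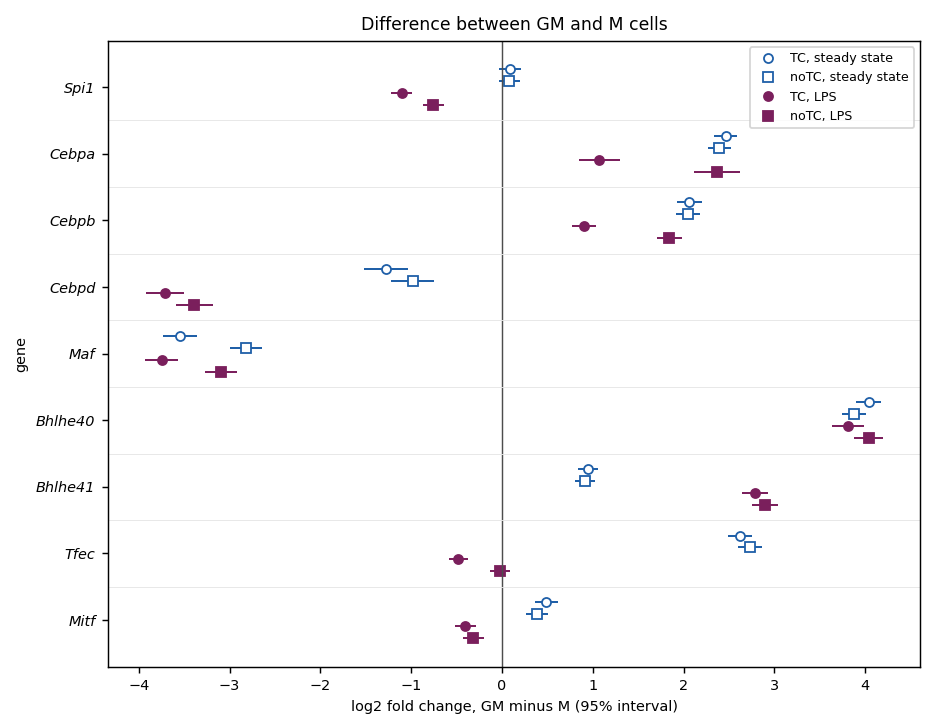
Log2 fold change of each gene between GM and M cells, positive where GM is higher, with its 95% interval, on TC (circles) and noTC (squares) at steady state (open) and after LPS (filled). Bhlhe40 stays near 4 in each condition, whereas Tfec and Mitf go from above 0 to at or below 0 with LPS and Spi1 goes from near 0 to -1.10 on TC.

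On noTC the same 6 genes were higher and the same 2 lower in GM-noTC than in M-noTC, and 62.1% of the genes tested were called. A fold above 2 was passed by 5 of them and by 22.2% of the genes tested, since Cebpd stood at 1.98-fold (log2 -0.98, SE 0.11, adjusted p = 1.3e-07). Maf was 7.06-fold lower in GM-noTC (log2 -2.82, SE 0.086, adjusted p = 1.2e-17). Mitf was 1.30-fold higher (log2 0.38), but when counts were scaled by library size only its difference was 0.09 and was not called. Spi1 was higher in GM cells by 0.08 (interval -0.04 to 0.19, adjusted p = 0.23), which was called with only the libraries of the contrast. With library size only its difference turned to -0.21 on noTC and -0.22 on TC, both called. The split of called genes was then 6 higher and 3 lower on TC and 5 higher and 3 lower on noTC. The dendritic cell markers moved with the growth factor as given above, and their part in these differences was not tested.

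After LPS the order of GM and M cells was reversed for Mitf on both dishes and for Tfec on TC, and Spi1, which was not called at steady state, was lower in GM cells. Spi1 was 2.15-fold lower in GM-TC-LPS than in M-TC-LPS (log2 -1.10, SE 0.056, adjusted p = 1.1e-13) and 1.69-fold lower on noTC. Mitf, higher in GM cells at steady state, was lower in GM-TC-LPS (log2 -0.40, SE 0.056, adjusted p = 1.6e-06) and in GM-noTC-LPS (log2 -0.32, SE 0.056, adjusted p = 3.8e-05). Tfec was lower in GM-TC-LPS (log2 -0.48, SE 0.053, adjusted p = 4.6e-08), and on noTC its difference was -0.02 with an interval of -0.13 to 0.09 and was not called. Bhlhe40 kept a difference of 3.81 on TC and 4.04 on noTC, and Bhlhe41 reached 2.79 and 2.90. Cebpd was 13.1-fold lower in GM-TC-LPS than in M-TC-LPS and 10.5-fold lower on noTC. On TC, 4 of the 9 genes were higher and 5 lower in GM cells, where 66.8% of the genes tested were called, and 6 of them had a fold above 2, as did 25% of the genes tested. On noTC 4 were higher and 4 lower with 66.1% called, and 6 had a fold above 2, as did 24.5% of the genes tested.

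Upon LPS challenge the direction of each of the 9 genes was the same in the 4 cultures with TMM scaling. Cebpa, Bhlhe40 and Bhlhe41 fell, and Spi1, Cebpb, Cebpd, Maf, Tfec and Mitf rose. In M-TC cells Tfec rose by 4.07 on the log2 scale (16.7-fold, SE 0.064, adjusted p = 3.9e-23), Cebpd by 3.48 (11.2-fold, SE 0.097, adjusted p = 7e-19), Mitf by 1.83 (SE 0.059), Cebpb by 1.66 (SE 0.068), Spi1 by 1.46 (SE 0.057) and Maf by 0.61 (SE 0.074, adjusted p = 1.5e-07). Bhlhe41 fell 7.47-fold (log2 -2.90, SE 0.067, adjusted p = 2.8e-20), Cebpa 4.86-fold (log2 -2.28, SE 0.093) and Bhlhe40 2.94-fold (log2 -1.56, SE 0.095). In M-noTC cells Tfec rose by 3.78, Cebpd by 3.60, Mitf by 1.76, Spi1 by 1.06, Maf by 0.86 and Cebpb by 0.61, and Cebpa fell by 3.31. Of the genes tested, 74% were called in M-TC and 72.3% in M-noTC, against 9 of the 9 genes in each. A fold above 2 was passed by 8 of the 9 genes and 35.8% of the genes tested in M-TC, and by 7 and 32.2% in M-noTC.

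In GM-TC cells Cebpa fell by 3.68 on the log2 scale (12.8-fold, SE 0.071, adjusted p = 1.6e-21), the widest change of the 9 genes there. Bhlhe40 fell by 1.79 (SE 0.057, adjusted p = 1.6e-17) and Bhlhe41 by 1.06 (SE 0.054). Of the 6 genes that rose, Cebpd rose by 1.05 (SE 0.12), Tfec by 0.96 (SE 0.054), Mitf by 0.94 (SE 0.058), Cebpb by 0.50 (SE 0.061), Maf by 0.41 (SE 0.099, adjusted p = 0.001) and Spi1 by 0.26 (SE 0.057, adjusted p = 0.00032). In GM-noTC cells the 9 genes moved by -3.34 (Cebpa) to 1.19 (Cebpd). Of the genes tested, 67% were called in GM-TC and 67.7% in GM-noTC, again against 9 of the 9 genes. A fold above 2 was passed by 4 of the 9 genes and 26% of the genes tested in GM-TC, and by 5 and 25.8% in GM-noTC. The smaller rises depended on the scaling. With library size only, the called genes split into 3 higher and 4 lower in both GM cultures, 5 and 4 in M-TC, and 4 and 3 in M-noTC. On that scale Spi1 moved by -0.22 in GM-TC and -0.28 in GM-noTC, Cebpb by -0.11 in GM-noTC and -0.12 in M-noTC, and Maf by -0.07 in GM-TC and -0.22 in M-TC, and each of these stayed above the shift of the median gene.

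**Figure D3:**
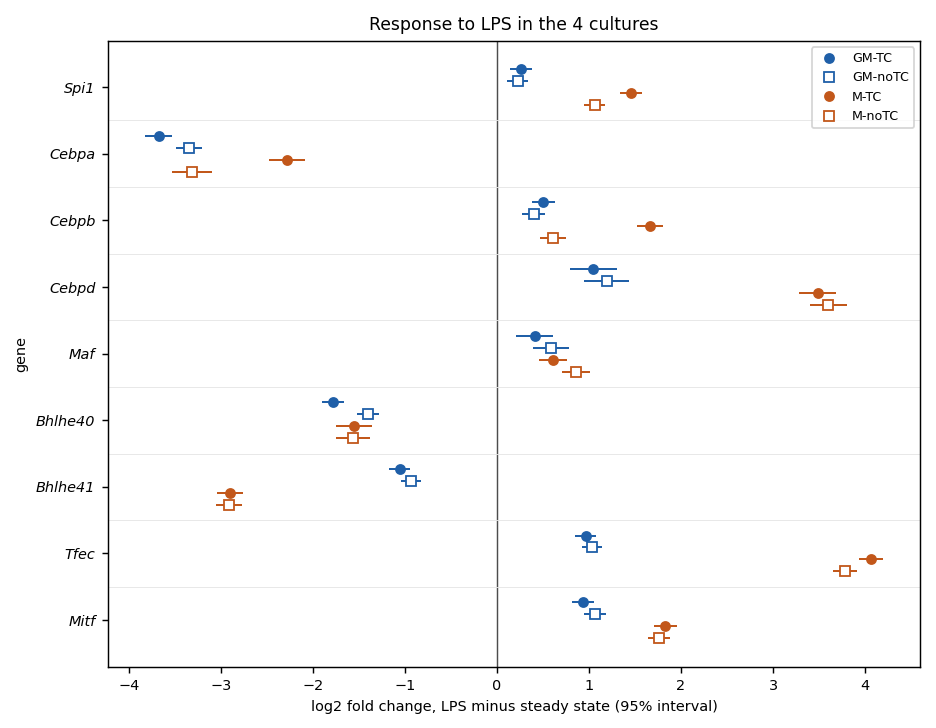
Log2 fold change of each gene upon LPS challenge in the 4 cultures with its 95% interval, blue for GM and orange for M, filled circles for TC and open squares for noTC. Tfec, Cebpd, Mitf and Spi1 rise further in M cells, Bhlhe41 falls further in M cells, and the small rises of Spi1 and Maf in GM-TC turn to -0.22 and -0.07 when counts are scaled by library size only.

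The LPS responses of GM and M cells were compared with an interaction term in the same fit. On TC, 7 of the 9 genes passed, 6 with a lower and 1 with a higher value in GM cells, against 41.1% of the genes tested. Tfec responded less in GM cells by 3.10 on the log2 scale, a value of -3.10 (SE 0.083, adjusted p = 2.2e-17), followed by Cebpd at -2.44 (SE 0.16, adjusted p = 3.6e-11), Cebpa at -1.39 (SE 0.13, adjusted p = 1.3e-08), Spi1 at -1.19 (SE 0.08, adjusted p = 6.3e-11), Cebpb at -1.16 (SE 0.091) and Mitf at -0.89 (SE 0.082). For Cebpa the negative value means a deeper fall in GM cells, not a smaller rise. Bhlhe41 had a positive value of 1.84 (SE 0.087, adjusted p = 2.2e-13), since it fell further in M cells. Bhlhe40, at -0.23 (interval -0.47 to 0.01), and Maf, at -0.20 (interval -0.46 to 0.05), were not called.

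On noTC, 5 of the 9 genes passed against 36.2% of the genes tested. They were Tfec at -2.75, Cebpd at -2.41, Spi1 at -0.84 and Mitf at -0.70 on the log2 scale, and Bhlhe41 at 1.98. Cebpa was at -0.03 (interval -0.37 to 0.31) and Cebpb at -0.21 (interval -0.40 to -0.02, adjusted p = 0.08), neither of them called, though Cebpb was with only the libraries of the contrast (-0.21). Maf, at -0.28 (interval -0.52 to -0.03), was not called either, but was called without GM-noTC replicate 1 and without M-noTC-LPS replicate 1 (-0.36 in both), without the low count filter (-0.25), and with only the libraries of the contrast or the replicate block (-0.27 in both). Bhlhe40 was called (0.38) with library size only. Cebpa and Cebpb thus passed this test on TC and missed it on noTC, and whether their LPS response differed between dishes was tested within each cell type.

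Between dishes the differences were smaller. Of the 9 genes, 5 were called in LPS treated M cells and 4 in untreated M cells, whereas of all genes tested 23.3% and 27.2% were called. In LPS treated M cells Cebpa was 2.10-fold lower on noTC (log2 -1.07, SE 0.15, adjusted p = 1.4e-05) and Cebpb 1.89-fold lower (log2 -0.91, SE 0.066, adjusted p = 1.9e-09). Tfec (log2 -0.38, SE 0.052, adjusted p = 1.5e-05), Maf (log2 -0.37, SE 0.074, adjusted p = 0.00089) and Spi1 (log2 -0.33, SE 0.055, adjusted p = 0.00011) were lower as well. The 5 called genes were all lower. Cebpd (log2 -0.21, adjusted p = 0.07), Bhlhe41 (log2 -0.17, adjusted p = 0.16), Bhlhe40 (log2 0.20, adjusted p = 0.24) and Mitf (log2 -0.02, interval -0.14 to 0.09) were not called. Cebpd was called with DESeq2 size factors (-0.23), without the low count filter (-0.21) and with only the libraries of the contrast (-0.19). In the M cells the macrophage markers summed to 24582 to 27729 CPM on TC and 19867 to 22463 CPM on noTC. The dendritic cell markers summed to 15.2 to 24.9 CPM on TC and 47.4 to 59.7 CPM on noTC. Nearly all of that sum was Itgax, at 15.5 CPM in M-TC and 47.1 CPM in M-noTC, and with LPS at 22.9 and 56.5 CPM. Zbtb46 was lower on noTC at steady state (0.18 against 0.37 CPM) and higher with LPS (0.25 against 0.21 CPM). Flt3 and Ccr7 were higher on noTC at both states, with means of at most 0.58 CPM in the M groups. Most of the macrophage sum was Lyz2, at 19354 CPM in M-TC and 15437 CPM in M-noTC, and with LPS at 20784 and 15952 CPM. Adgre1, Csf1r and Mertk were also lower on noTC at both states. Itgam was higher on noTC, at 944 against 733 CPM and with LPS at 1149 against 958 CPM. Cd68 was higher at steady state (1073 against 1012 CPM) and lower with LPS (1256 against 1273 CPM). The part of these markers in the dish differences was not tested.

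**Figure D4:**
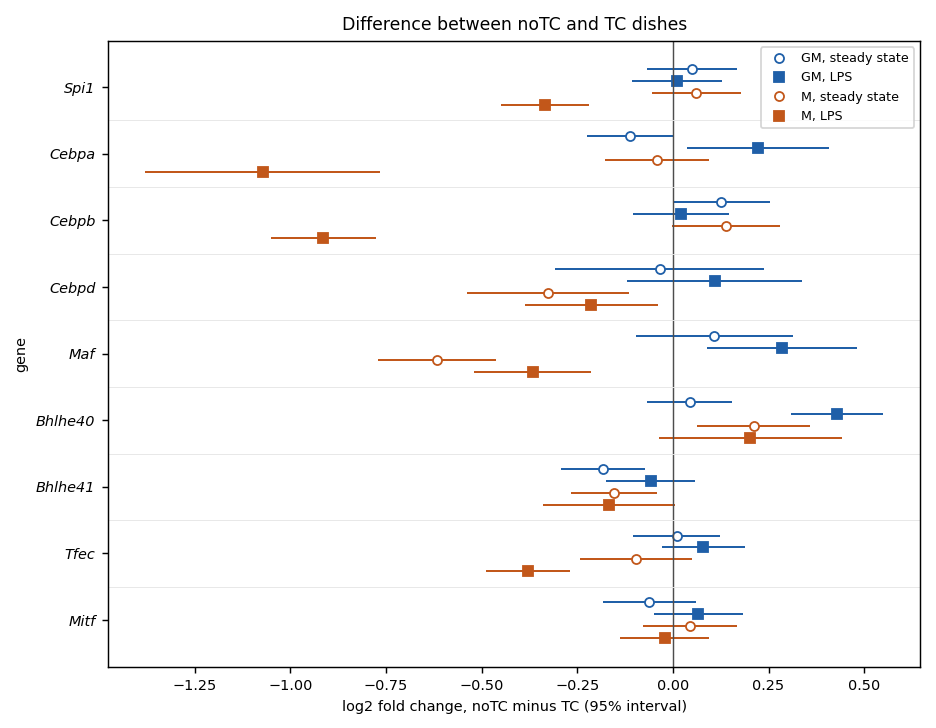
Log2 fold change of each gene between noTC and TC dishes, positive where noTC is higher, with its 95% interval, blue for GM and orange for M, open circles for steady state and filled squares for LPS. Cebpa, Cebpb, Tfec and Spi1 are clearly below 0 only in LPS treated M cells, Maf is below 0 in M cells at both states, and Bhlhe40 is above 0 in LPS treated GM cells.

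At steady state Maf was 1.53-fold lower in M-noTC than in M-TC (log2 -0.62, SE 0.074, adjusted p = 1.5e-06). Cebpd (log2 -0.33, SE 0.10, adjusted p = 0.02) and Bhlhe41 (log2 -0.15, SE 0.054, adjusted p = 0.037) were lower and Bhlhe40 was higher (log2 0.21, SE 0.071, adjusted p = 0.03). These 4 of the 9 genes compare with 27.2% of the genes tested. Of these calls Maf alone was kept with any 1 of the 4 libraries left out, when 1 or 2 of the 9 genes were called. Bhlhe40 was also lost with DESeq2 (0.19), with its size factors (0.19) and after subtraction of the share given above (0.18), and Bhlhe41 without the low count filter (-0.15). Cebpa (log2 -0.04, interval -0.18 to 0.09), Tfec (log2 -0.10, interval -0.24 to 0.05), Mitf (log2 0.04, interval -0.08 to 0.17), Spi1 (log2 0.06, interval -0.06 to 0.18) and Cebpb (log2 0.14, adjusted p = 0.15) were not called. The heart muscle markers were detected in the TC libraries of this comparison and were at 0 in the noTC libraries, with the same split between GM-TC and GM-noTC, and their part was not tested. They also moved with LPS on TC.

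In GM cells the dish was followed by a single called gene at each state. At steady state Bhlhe41 was lower on noTC (log2 -0.18, SE 0.053, adjusted p = 0.035), 1 of the 9 genes against 7.54% of the genes tested, and the call was lost when the GM-TC replicate 2 library or either GM-noTC library was left out, with DESeq2 and with only the libraries of the contrast. Without GM-TC replicate 2, Cebpb passed instead (log2 0.22). After LPS Bhlhe40 was 1.35-fold higher on noTC (log2 0.43, SE 0.058, adjusted p = 9.8e-05), 1 of the 9 genes against 2.8% of the genes tested. Maf in LPS treated GM cells was higher on noTC by 0.28 on the log2 scale (interval 0.09 to 0.48) but missed the threshold (adjusted p = 0.13), which it passed without the low count filter (0.29), with only the libraries of the contrast (0.28) and with the replicate block (0.29). The intervals for Spi1, 0.01 (-0.11 to 0.13), Cebpb, 0.02 (-0.11 to 0.15), and Tfec, 0.08 (-0.03 to 0.19), ended within 0.19 of no dish difference in LPS treated GM cells.

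The dish differences before and after LPS, and in GM and M cells, were also tested against each other. In M cells the dish difference changed with LPS for 4 of the 9 genes, against 10.6% of the genes tested. These were Cebpb at -1.05 (SE 0.095, adjusted p = 2e-07), Cebpa at -1.03 (SE 0.16, adjusted p = 0.00018), Spi1 at -0.39 (SE 0.079, adjusted p = 0.0021) and Tfec at -0.28 (SE 0.088, adjusted p = 0.043). Leaving out any library but M-noTC-LPS replicate 2 lost the Tfec call, with values from -0.35 to -0.20. With library size only the split was 3 lower and 1 higher, Tfec (-0.18) being lost and Maf (0.35) gained. Tfec was also lost without the low count filter (-0.28), with only the libraries of the contrast (-0.24) and after subtraction of the share (-0.22), and Maf was also gained without the filter (0.25), with only the libraries of the contrast (0.29) and with the replicate block (0.25). In GM cells 1 of the 9 genes passed against 0.783% of the genes tested, Bhlhe40 at 0.39 (SE 0.079, adjusted p = 0.017), and it was lost when any of GM-noTC replicate 1, GM-noTC replicate 2, GM-TC-LPS replicate 1, GM-TC-LPS replicate 2 or GM-noTC-LPS replicate 1 was left out, with only the libraries of the contrast and after subtraction of the share.

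Between GM and M cells, the dish difference at steady state differed for 1 of the 9 genes, Maf at 0.73 (SE 0.12, adjusted p = 0.00037), against 11.2% of the genes tested. Without GM-TC replicate 2, Cebpd passed as well. After LPS it differed for 5 of the 9 genes, all with the lower value in M cells, against 10.6% of the genes tested. They were Cebpa at 1.30 (SE 0.17, adjusted p = 2.4e-05), Cebpb at 0.94 (SE 0.09, adjusted p = 3.7e-07), Maf at 0.65 (SE 0.12, adjusted p = 0.00082), Tfec at 0.46 (SE 0.074, adjusted p = 0.00024) and Spi1 at 0.35 (SE 0.079, adjusted p = 0.0056). With library size only Spi1 was at 0.24 and was not called, and without the low count filter Cebpd was called at 0.33.

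Levels of different genes were compared per length, as TPM computed from the counts and the merged exon length of each gene, a scale without TMM. In GM-TC the highest per-length level was that of Cebpb at 310 TPM, followed by Bhlhe40 at 247, Spi1 at 214, Tfec at 155 and Cebpa at 124, and the lowest were Cebpd at 8.34 and Maf at 7.03. In M-TC Spi1 led at 285 TPM, followed by Maf at 117 and Cebpb at 105, and Bhlhe40 was lowest at 21.3. In M-TC-LPS Spi1 at 448 TPM was followed by Tfec at 341, Cebpb at 190 and Cebpd at 186, while Bhlhe41 at 5.32, Bhlhe40 at 4.15 and Cebpa at 3.74 were lowest. In GM-TC-LPS Cebpb led at 326 TPM, followed by Tfec at 224 and Spi1 at 191. On this scale Mitf was at 45.9 TPM in GM-TC and 46.1 in M-TC, and Maf was at 117 TPM in M-TC and 102 in M-TC-LPS.

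**Figure D5:**
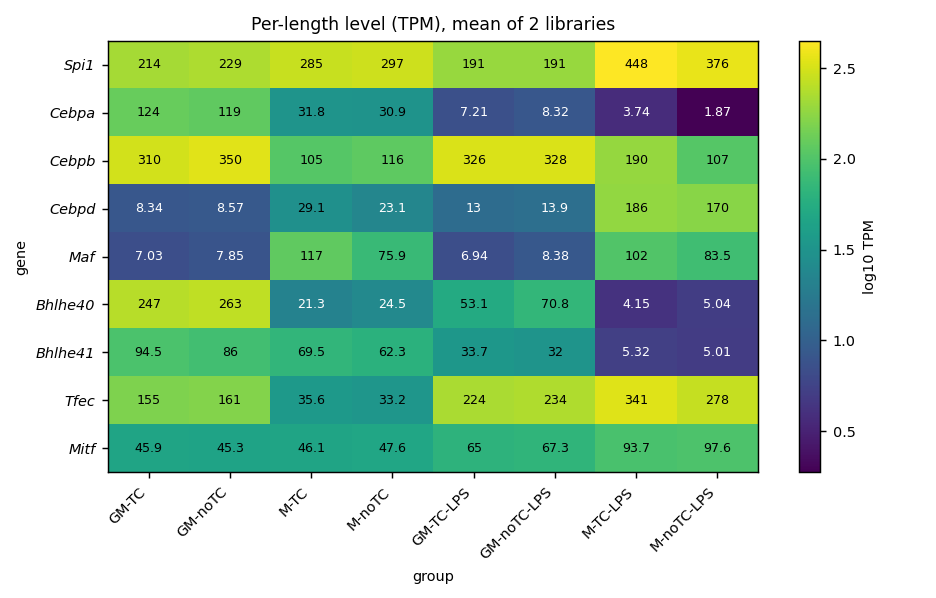
Per-length level of each gene in each group as TPM, the mean of 2 libraries, with the colour on a log10 scale. Spi1 holds 191 TPM or more in every group, whereas Cebpa goes from 124 TPM in GM-TC to 1.87 TPM in M-noTC-LPS.

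Over the log2 of the 8 group mean CPM values, the profiles of some of the 9 genes ran together or against each other. This is given as a description over groups that share growth factor, dish and LPS. Cebpd and Bhlhe41 had a Pearson r of -0.995, Maf and Bhlhe40 of -0.973, Spi1 and Cebpd of 0.942, Spi1 and Bhlhe41 of -0.937, and Tfec and Mitf of 0.898. Among 7820 genes with a mean of at least 10 CPM, the profile most like that of Spi1 was Pgs1 (r = 0.996), that of Cebpa was Ston2 (0.990), that of Cebpb was Unc45a (0.991), and that of Cebpd was Phip (0.998). The profile most like that of Maf was Ptpro (0.997), with C1qb, a subunit of complement C1q, next at 0.995. For Bhlhe40 it was Galnt6 (0.999), for Bhlhe41 Ripor1 (0.998), for Tfec St7 (0.996) and for Mitf Dedd (0.999). Also among the 3 most alike were a gene whose symbol is stored as a date (ENSMUSG00000073481) for Spi1, Gnl3 for Cebpa, Ogdh and Flot1 for Cebpb, Mcur1 and Pigv for Cebpd, Arhgap22 after C1qb for Maf, Ivd and Stra6l for Bhlhe40, Mrtfb and Zfp219 for Bhlhe41, Fzd1 for Tfec, and Psma3 and Tiparp for Mitf. With 8 points and 7820 genes compared, each of the 9 profiles had genes this close to it.

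Genes known as targets of these factors were counted from short lists of textbook targets. Of the 5 genes known as MAF targets, 4 were lower and 1 was higher in GM-TC than in M-TC, where 61.5% of all genes tested were called, with a median of -2.39 against 0.02 for all genes tested (that of C1qa, and so the same with Il10 at any bound). The 3 C1q subunits were among the lower genes. Il10, an anti-inflammatory cytokine, was at 0 in GM-TC and at 2.66 CPM in M-TC, whereas Msr1, a scavenger receptor, was higher in GM-TC (log2 1.97). In LPS treated M cells all 5 were lower on noTC, from C1qa at 77.6 against 160 CPM (log2 -1.04, adjusted p = 6e-09) to Msr1 (log2 -0.30, adjusted p = 0.00014), with a median of -0.67, where 23.3% of all genes were called. At steady state 4 were lower on M-noTC and 1, Msr1, was higher (log2 0.44), where 27.2% were called. In M-TC cells, where LPS changed 74% of all genes tested, it raised 4 of the 5, from C1qc (log2 0.31) to Il10 (log2 4.20), and with library size only it raised 2 and lowered 3.

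The other lists are read against the same shares of all genes tested, 61.5% between GM-TC and M-TC, 74% with LPS in M-TC and 23.3% between dishes in LPS treated M cells. Of the 6 MITF family targets tested, of 7 in the list, 5 were higher and 0 lower in GM-TC than in M-TC, with a median of 2.31. They ranged from Ostm1, a lysosomal membrane protein (log2 0.71), to Acp5, the tartrate resistant acid phosphatase of osteoclasts, at 315 against 6.87 CPM (log2 5.52). Between GM-TC-LPS and M-TC-LPS, 66.8% of all genes tested were called. There 5 of the 6 targets were higher and 1 lower in GM cells, with a median of 2.31. Mitf and Tfec were themselves lower in GM cells in that comparison (log2 -0.40 and -0.48). LPS raised 3 and lowered 2 of the 6 in M-TC cells, with a median of 0.02, and with library size only it raised 2 and lowered 4. Of the 10 myeloid genes known as PU.1 or C/EBP targets, 4 were higher and 5 lower in GM-TC than in M-TC, from Csf3r, the G-CSF receptor (log2 -3.67), to Itgb2, an integrin beta chain (log2 2.07), with a median of -0.27. With LPS 7 of the 10 rose and 1 fell in M-TC cells, a share of called genes near the 74% of all genes tested, Cd14, the LPS co-receptor, the most (log2 2.36) and Tlr4, the LPS receptor, falling (log2 -0.20), with a median of 0.41 against -0.01 for all genes tested. When scaled by library size, 3 rose and 7 fell. In LPS treated M cells 2 were higher and 6 lower on noTC, from Csf3r (log2 -0.89) to Itgb2 (log2 0.34).

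Of the family relatives, 10 of 11 were tested. In GM-TC 4 were higher and 2 lower than in M-TC, a share of called genes near the 61.5% of all genes tested, with a median of 0.25. Cebpe, a granulocyte factor, was at 0.605 CPM in GM-TC and 0.120 CPM in M-TC, the latter near the level of 3 counts. When scaled by library size, 3 were higher and 4 lower. In M-TC cells LPS raised 2 and lowered 5 of them against 74% of all genes tested, with a median of -0.62 with TMM scaling. At the low end was Tfeb, an MiT family factor of lysosomal genes, which went from 20.1 to 1.22 CPM (log2 -4.03). At the high end was Maff, a small MAF protein, which went from 1.17 to 29.9 CPM (log2 4.66). With library size only, the median of all genes tested moved to -0.83 in this comparison. In LPS treated M cells 4 were lower and 0 higher on noTC against 23.3%, from Mafg (log2 -0.51) to Tfe3 (log2 -0.30). Of 18 other myeloid transcription factors, 7 were higher and 8 lower in GM-TC than in M-TC against 61.5% of all genes tested, with a median of 0.07, from Id3, an inhibitor of DNA binding, at 0.126 against 3.5 CPM, to Egr2, an immediate early factor, at 115 against 5.42 CPM (log2 4.40). In M-TC cells LPS raised 9 and lowered 7 against 74%, with a median of 0.23, from Rxra, a nuclear receptor (log2 -2.71), to Gfi1, a zinc finger repressor, which went from 0.153 to 32.3 CPM. With library size only it raised 6 and lowered 9. The lower values of Id3 and Gfi1 were at the level of about 3 counts, and no fold is given for them. On noTC, 2 were higher and 4 lower in LPS treated M cells against 23.3%, from Id3 (log2 -1.20) to Irf8, an interferon regulatory factor (log2 0.36), and with library size only 4 were higher and 4 lower.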

How the data were processed

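RNA-seq was done on 16 libraries in 8 groups of 2, assigned from the sample titles. Per the study's methods, mRNA was selected with oligo(dT) beads, reads were aligned with HISAT2 and genes were quantified with RSEM. The processing notes also name fastp 0.18.0, Bowtie2 2.2.8 and StringTie 1.3.1. The deposited values are expected counts without normalization. The genome build and the strand setting are not given in the sources used here. Expected counts were rounded, since 6.56% to 8.19% of the values per library were fractional. The kit does not mark strand.

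Genes were filtered with edgeR 4.0.16 (filterByExpr by group), scaled with TMM and tested with its quasi-likelihood test in R 4.3.3, in 1 fit over 8 groups without a replicate block, with BH adjustment over 12514 genes at 0.05. The common dispersion was 0.00226. SE and 95% intervals come from that fit. TPM used merged exon lengths of GENCODE (GRCm38), the source of the gene coordinates. No 2 replicates agreed within sampling noise, and the fit was tested on simulated data. Floors of 3 counts cover counting error only.

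The 9 genes and the lists were chosen with earlier results of these data known. The genes named are the 9, the 3 most alike in profile for each, and the called genes with the largest and smallest change of each list. Some genes that this rule names are not reported here. The C1q subunits and Msr1 at steady state, Cd3e, and the single macrophage and dendritic cell markers were named after their values were seen. Alternatives were DESeq2 1.42.0 or its size factors, library size only, no filter, only the libraries of the contrast, a replicate block, each library left out, and subtraction of the share given above from GM-noTC and M-noTC. That median share came from 15 (GM) and 19 (M) genes under 1 CPM in TC and with a mean of at least 100 CPM in the 10 other libraries.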

Additional observations from a re-analysis of the deposited data

Results flagged for a closer look

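In 23 cases an effect on 1 of the 9 genes differed between groups by an interaction term of edgeR's quasi-likelihood fit (BH-adjusted p under 0.05), which is what marked it for a closer look. Of all genes tested, growth factor by LPS was called for 41.1% on TC and 36.2% on noTC. Dish by LPS was called for 10.6% in M cells and 0.783% in GM cells. Dish by growth factor was called for 11.2% at steady state and 10.6% after LPS. The values are differences of 2 log2 fold changes, and no explanation was tested.

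The response to LPS differed between GM and M cells on TC for Spi1 (-1.19), Cebpa (-1.39), Cebpb (-1.16), Cebpd (-2.44), Bhlhe41 (1.84), Tfec (-3.10) and Mitf (-0.89). On noTC it differed for Spi1 (-0.84), Cebpd (-2.41), Bhlhe41 (1.98), Tfec (-2.75) and Mitf (-0.70). Cebpa and Cebpb are in the first group alone, and in M cells their own test of dish against LPS gave -1.03 and -1.05.

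The dish difference changed with LPS in M cells for Spi1 (-0.39), Cebpa (-1.03), Cebpb (-1.05) and Tfec (-0.28), and in GM cells for Bhlhe40 (0.39). It differed between GM and M cells at steady state for Maf (0.73), and after LPS for Spi1 (0.35), Cebpa (1.30), Cebpb (0.94), Maf (0.65) and Tfec (0.46). Groups of 2 libraries were too small for a check of single libraries that stand apart.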

How the results depend on the processing

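The 9 genes were refitted under each alternative. Apart from the fits without 1 library, 989 single-gene values kept their direction and their side of the threshold, 30 reversed, 17 lost and 17 gained a call. No paired design was stated. The deviations of same-numbered libraries had an r between -0.106 and 0.132 over 7983 genes, the highest for M-noTC-LPS against M-TC-LPS. With 2 libraries a group, these values cannot settle whether libraries were paired. The replicate block moved the called genes from 1 to 2 for the dish in LPS treated GM cells (Maf at 0.29 gained) and no other count by over 1.5 times.

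Counts of called genes also moved without the low count filter (2 for the dish in LPS treated GM cells), with only the libraries of the contrast (2 there, 0 for the dish in GM cells at steady state and 0 for dish by LPS in GM), with DESeq2 (0 for the dish in GM cells) and after subtraction of the share (0 for dish by LPS in GM). Without 1 library they ranged from 0 to 1 for the dish in GM cells and for dish by LPS in GM, from 1 to 2 for the dish in M cells (4 with all), and from 1 to 2 for dish by growth factor at steady state.

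With library size only, the reversed values were, for Spi1, -0.22 and -0.21 (GM against M at steady state, TC and noTC), -0.22 and -0.28 (LPS in GM-TC and GM-noTC), -0.0081 (dish, GM with LPS) and 0.013 (dish by growth factor, steady state). For Cebpb they were -0.11 and -0.12 (LPS in GM-noTC and M-noTC), 0.0086 (growth factor by LPS, noTC) and 0.011 (dish by growth factor, steady state). For Maf they were -0.072 and -0.22 (LPS in GM-TC and M-TC) and 0.15 (growth factor by LPS, TC). The others were Cebpa 0.19 (growth factor by LPS, noTC), Bhlhe40 0.11 (growth factor by LPS, TC) and 0.092 (dish by LPS, M), Bhlhe41 0.086 (dish by LPS, M), and Mitf 0.066 (dish, M with LPS), 0.035 (dish by LPS, M) and -0.019 (dish by growth factor after LPS). The scaling itself moves the median gene, and no other cause was tested. On that scale the called values among them are those of Spi1 between GM and M cells and with LPS, and that of Maf with LPS in M-TC.

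The other reversed values were uncalled, and the farthest from 0 was that of Cebpd for the dish in GM cells without GM-TC replicate 2 (0.25). Dish by growth factor at steady state gave Spi1 0.024, Cebpb 0.022 and Bhlhe41 0.0043 with DESeq2 size factors, 0.023, 0.021 and 0.0035 with DESeq2, and Cebpb 0.0078 after subtraction of the share. Dish by LPS in M gave Bhlhe40 0.036 and Bhlhe41 0.030 with only the libraries of the contrast, and Bhlhe40 0.019 after subtraction. Without 1 library, the dish in GM cells at steady state ranged from -0.030 to 0.14 (Spi1), -0.24 to 0.25 (Cebpd) and -0.013 to 0.033 (Tfec). With LPS it ranged from -0.0024 to 0.027 (Spi1), -0.017 to 0.060 (Cebpb) and -0.038 to 0.29 (Cebpd). Dish by LPS in GM ranged from -0.13 to 0.047 (Spi1) and -0.14 to 0.36 (Cebpd). Dish by growth factor at steady state ranged from -0.085 to 0.075 (Spi1), -0.091 to 0.079 (Cebpb) and -0.079 to 0.024 (Bhlhe41). Dish by LPS in M ranged from -0.11 to 0.084 (Bhlhe40), -0.065 to 0.047 (Bhlhe41) and -0.14 to 0.0096 (Mitf). The others were -0.15 to 0.12 for Cebpa (growth factor by LPS, noTC), -0.060 to 0.013 for Tfec (GM against M with LPS, noTC) and -0.094 to 0.056 for Mitf (dish, M with LPS).

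With 2 libraries a group, an exact permutation test cannot go below a two-sided p of 0.333, so the calls rest on the spread shared over 8 groups. With 3 counts at 0.0954 to 0.171 CPM, Cebpa in M-noTC-LPS at 2.32 CPM is the value nearest that floor.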
